A study of Arabidopsis thaliana with 24 samples.

Results

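The difference in chitin response between a pair of RING-protein insertion mutants and wild-type Col-0 was measured in whole *Arabidopsis thaliana* seedlings. For each probe set, the log2 change (chitin minus mock) was averaged over the mutants *atl9* and *rre2*, and the change in Col-0 was subtracted from it. This interaction is above 0 where a transcript rose more, or fell less, in the mutants. It was computed over all 24 ATH1 arrays of the series and tested for 16530 of the 22746 probe sets that are not controls, those of the highest mean signal. The line *atl9* (labelled rre1-1) carries a T-DNA insertion in *ATL9* and *rre2* (labelled rre2-1) one in *ATL2*, and each mutant is represented by 1 insertion line. Both genes encode proteins with a RING domain. Seedlings of *atl9*, *rre2* and Col-0 were shaken for 14 days in liquid Murashige and Skoog medium with dextrose, and each line then received either hydrolysed crab-shell chitin at 100 mg per litre or a mock treatment for 30 min. The resulting groups were *atl9* with chitin, *atl9* mock, *rre2* with chitin, *rre2* mock, Col-0 with chitin and Col-0 mock, with 4 biological replicates and 4 arrays each.

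Chitin is a polymer of fungal cell walls and insect exoskeletons. Plants bind its fragments at the cell surface through LysM receptor kinases, and calcium influx, a burst of reactive oxygen, kinase cascades and a fast wave of transcription follow. RING-type E3 ligases attach ubiquitin to proteins, and many ATL genes, which encode membrane-anchored members of this class, are among the transcripts that elicitors raise early. The paper places ATL9 in the endoplasmic reticulum.

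Values below are signals divided by the median signal of the same array, called relative signals, and differences are on the log2 scale, with n = 4 arrays per group unless said otherwise. Before this division the array medians were 150.45 to 168 units in *atl9* with chitin, 147.6 to 157.1 in *rre2* with chitin and 138.7 to 162.65 in Col-0 with chitin, against 172.9 to 185.2, 161.6 to 189.3 and 170.05 to 181.9 in the mock groups of the same lines. Every group had 2 arrays scanned on the fourth scan day and 2 on the earlier days, which were spread unevenly over the groups. Both *atl9* groups had 0 arrays on the first day and Col-0 mock had 0 on the third. Col-0 with chitin and both *rre2* groups had 0 on the second. In every line the mock arrays were washed on modules 1 and 3 of the fluidics station and the chitin arrays on modules 2 and 4, so module and treatment cannot be told apart, while modules were spread alike over the lines. The probe sets of *ATL9* and *ATL2* are not analysed here, so the insertions were not checked at the transcript level. The labels of chitin-treated Col-0 arrays give the treatment as chitin in the title and source name and as untreated in the description, and they were taken as chitin-treated. Among marker genes of seedling tissues, the mesophyll gene *RCA*, the root-hair genes *EXPA7* and *EXPA18*, 1 root cortex gene and 2 guard-cell genes were measured, and none of these 6 passed the interaction test. The summed relative signal of the root-hair genes spanned 8.50 to 15.98 in *atl9*, 14.1 to 16.6 in *rre2* and 14.4 to 17.9 in Col-0 after chitin. Markers of the stele, the vasculature, the shoot epidermis and dividing cells were not analysed here. In whole seedlings, fewer cells of a type and less RNA per cell cannot be told apart.

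The chitin response of the mutants differed from that of Col-0 at 198 probe sets (adjusted p under 0.05), 1.2% of those tested. The difference was positive at 81 probe sets (0.49%) and negative at 117 (0.708%). The size of the difference had a median of 0.96 among the calls, with a range of 0.52 to 4.1, and reached 1, a 2-fold difference in response, at 91 of them. Over all tested probe sets the median size was 0.22 and the median signed value -0.02. Without a division by array medians the same test gave 119 positive and 93 negative calls, and after quantile normalization 82 and 65, so which direction held more calls depended on the scaling. It also depended on 1 array, since 134 positive and 103 negative calls were made without Col-0 chitin replicate 1. A single gene of the annotation matched 96 of the 198 probe sets, 48 in each direction, while 101 were not listed there and 1 matched several genes. The count moved strongly when 1 array was left out. When Col-0 mock replicate 3 was dropped it was 6, when chitin replicate 4 of Col-0 was dropped 7, and when its chitin replicate 3 was dropped 43. Dropping mock replicate 2 or 4 or chitin replicate 3 of *atl9* gave 107, 92 and 100 calls, and dropping chitin replicate 3 or 4 or mock replicate 4 of *rre2* gave 107, 108 and 131. Dropping *rre2* chitin replicate 1 gave 400.

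**Figure D1:**
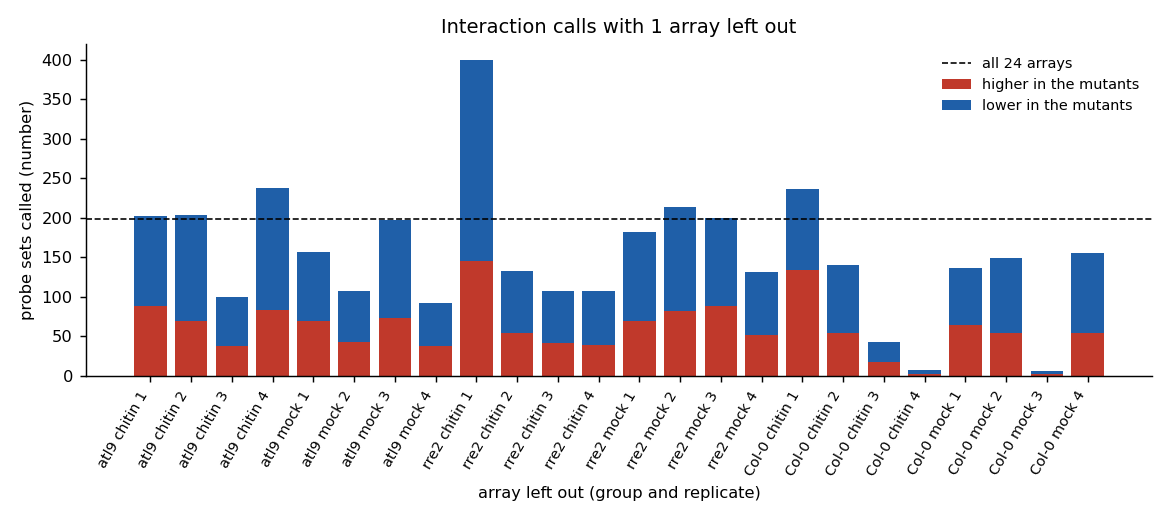
Number of probe sets called for the interaction (vertical axis) when the array named on the horizontal axis was left out of the fit, split into differences above 0 (red) and below 0 (blue); the dashed line is the count with all 24 arrays, 198. The shortest bars belong to the Col-0 arrays of mock replicate 3 (6) and chitin replicate 4 (7), and the tallest to *rre2* chitin replicate 1 (400).

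The levels of the 198 probe sets in each treatment come from the arrays that chose them, so they are a description and test nothing. After chitin 194 of the 198 differed between the mutants and Col-0, and over all tested probe sets 1075 (6.5%) were higher and 1415 (8.56%) lower in the mutants. All 8 mutant chitin arrays lay above all 4 Col-0 chitin arrays at 59 of the 81 positive calls (72.84%, and 2.92% of all probe sets) and below them at 97 of the 117 negative calls (82.91%, and 4.65% of all probe sets). In mock seedlings 0 of the 198 passed as different between the mutants and Col-0, which does not show that their mock levels were alike, and 3 of all probe sets tested (0.0181%) passed, among them AT2G36440, which is described with the strongly raised genes below. All mutant mock arrays lay below those of Col-0 at 3 of the 81 positive calls (3.7%, and 0.28% of all probe sets) and above them at 3 of the 117 negative calls (2.56%, and 0.47% of all probe sets).

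The calls fell into a few patterns when the chitin responses of the lines were tested on their own. In the mean of the mutants 1751 probe sets rose (10.6%) and 1085 fell (6.56%) after chitin, and in Col-0 1944 rose (11.8%) and 938 fell (5.67%). The largest class, 104 of the 117 negative calls, did not pass as changed in the mutants and passed as a rise in Col-0, with median changes of -0.11 in the mutants and 0.80 in Col-0. A further 8 negative calls passed as a fall in the mutants only, 3 passed as a fall in the mutants and a rise in Col-0, 1 passed as a fall in both, and 1 passed as a rise in both. Among the 81 positive calls, 37 did not pass in the mutants and passed as a fall in Col-0, with median changes of 0.05 in the mutants and -1.22 in Col-0. Another 22 passed as a rise in the mutants only (medians 0.84 in the mutants and -0.13 in Col-0), and 18 rose in both, with medians of 1.93 in the mutants and 1.13 in Col-0. The remaining 4 comprised 3 that rose in the mutants and fell in Col-0 and 1 that fell in both.

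**Figure D2:**
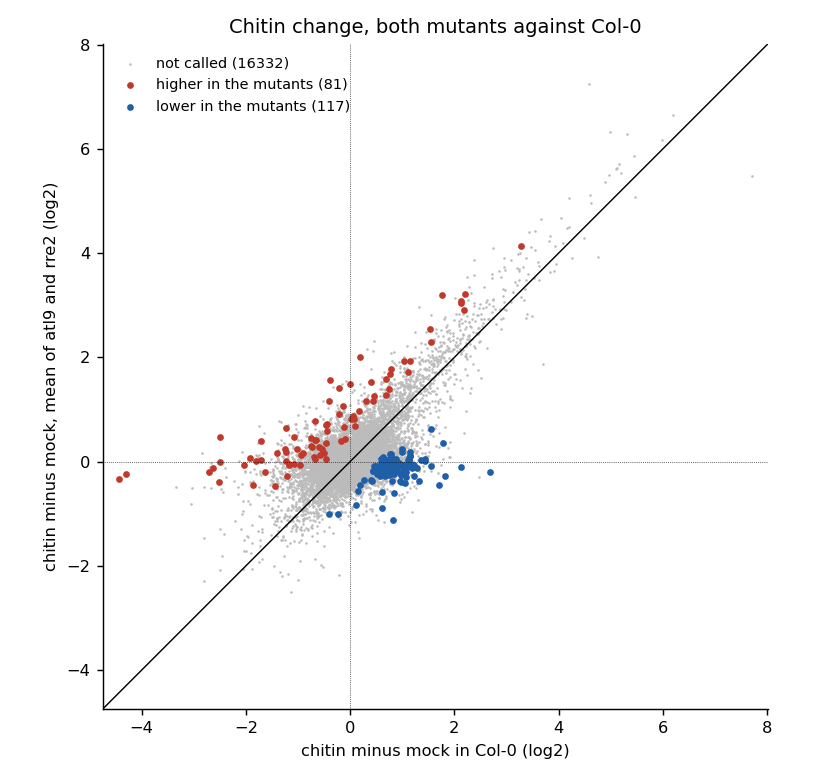
Chitin change of each tested probe set, the mean of *atl9* and *rre2* (vertical axis, log2) against Col-0 (horizontal axis, log2), with the diagonal of equal change; red points are the 81 positive and blue points the 117 negative interaction calls, and grey points the others. Most blue points lie right of 0 on the Col-0 axis and near 0 on the mutant axis, and the 5 genes named for the largest rises over the lines are not called, among them AT2G36440, which lies below the diagonal at 5.48 in the mean of the mutants and 7.71 in Col-0.

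Transcripts of the photosynthetic apparatus did not pass as raised by chitin in the mutants and mostly rose in Col-0. Of 8 genes tested in this list, 0 rose in the mutants and 7 in Col-0, and 2 passed the interaction test, both below 0. Of all probe sets tested, 10.6% rose in the mean of the mutants and 11.8% in Col-0, and 0.708% were called below 0. The list's median interaction was -0.76, beside -0.02 over all probe sets. *LHCB4.2* (AT3G08940), a minor antenna protein of photosystem II, had relative signals of 27.6, 12.7, 18.2 and 33.9 in *atl9*, 16.5, 11.6, 12.9 and 12.2 in *rre2* and 29, 34.6, 37.2 and 39.99 in Col-0 after chitin. The mock arrays spanned 23.6 to 27 in *atl9*, 14 to 24.5 in *rre2* and 15.2 to 20.4 in Col-0. The Col-0 chitin arrays lay above all *rre2* chitin arrays and overlapped the highest array of *atl9*. The interaction was -1.35 (95% interval -1.92 to -0.78, adjusted p = 0.0229).

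*PSBY* (AT1G67740), a small subunit of photosystem II, averaged 20.4 ± 4.87 in *atl9*, 17.1 ± 1.1 in *rre2* and 28.9 ± 2.78 in Col-0 after chitin (SD, n = 4 each), against 21.2 ± 0.412 in *atl9*, 21.6 ± 2.14 in *rre2* and 19.98 ± 2.5 in Col-0 in mock seedlings. Its interaction was -0.75 (95% interval -1.10 to -0.40, adjusted p = 0.0342). *LHCB4.1* at -0.79 (adjusted p = 0.0703) and *PSBW*, another photosystem II subunit, at -0.76 (adjusted p = 0.0665) did not pass. Outside the naming rule, and picked after their values were seen, 2 further chloroplast genes were called. *PORB* (AT4G27440), which reduces protochlorophyllide in chlorophyll synthesis, averaged 13.7 ± 3.93 in *atl9*, 7.9 ± 1.78 in *rre2* and 18.8 ± 1.94 in Col-0 after chitin and had an interaction of -1.05 (95% interval -1.59 to -0.51, adjusted p = 0.0496). *LrgB* (AT1G32080), which encodes a chloroplast envelope transporter, had an interaction of -1.03 (95% interval -1.54 to -0.53, adjusted p = 0.0387). The mesophyll gene *RCA*, rubisco activase, followed with -0.51 but did not pass (adjusted p = 0.264), and its relative signal after chitin spanned 32.7 to 62.3 in *atl9*, 25.3 to 38.7 in *rre2* and 46.4 to 61.3 in Col-0. The part of leaf RNA content in these values was not tested.

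Cytoskeletal genes showed the same direction. All 8 tubulin and actin genes tested had an interaction below 0, and 1 of them passed, while 0.708% of all probe sets were called below 0. The list's median was -0.58, beside -0.02 over all probe sets. *TUB1* (AT1G75780), a beta-tubulin, had relative signals of 2.37, 3.17, 2.58 and 2.38 in *atl9*, 3.42, 2.55, 1.9 and 2.03 in *rre2* and 6, 7.56, 6.74 and 6.92 in Col-0 after chitin. In mock it spanned 2.59 to 2.91 in *atl9*, 2.57 to 2.86 in *rre2* and 2.43 to 3.48 in Col-0. Every Col-0 chitin array lay above all other 20 arrays. The interaction was -1.31 (95% interval -1.70 to -0.91, adjusted p = 0.00515), and it passed with any single array left out. The beta-tubulins *TUB6*, *TUB5* and *TUB7* had interactions of -0.67 (adjusted p = 0.0515), -0.70 (adjusted p = 0.0947) and -0.49 (adjusted p = 0.157). Tubulin genes are similar in sequence, and cross-hybridization between their probe sets was not tested.

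Genes of the cell wall were mostly below 0 as well, with 0 calls in their list. In the list of wall-loosening and growth genes (expansins, xyloglucan hydrolases and pectin methylesterases), 20 of 26 tested genes had an interaction below 0 and 0 passed. The list's median was -0.34, beside -0.02 over all probe sets, of which 0.708% were called below 0. Its smallest adjusted p values belonged to *XTH32*, a xyloglucan endotransglucosylase/hydrolase, with -1.04 (adjusted p = 0.0665), and *EXPB3*, a beta-expansin, with -1.02 (adjusted p = 0.137). The pectin methylesterase genes *PME41* (listed as *ATPMEPCRB*) and *PME61* followed at -1.26 and -0.93 (adjusted p = 0.171 and 0.19). A few single genes outside the list were called, and no list that holds them as wall genes was tested. AT1G04680, a pectate lyase gene in the study's annotation, averaged 5.11 ± 1.07 in *atl9*, 4.77 ± 1.55 in *rre2* and 10.4 ± 0.848 in Col-0 after chitin and had an interaction of -0.97 (95% interval -1.47 to -0.48, adjusted p = 0.047). *COB* (AT5G60920), the COBRA protein that orients cellulose microfibrils, and AT5G06700, *TRICHOME BIREFRINGENCE*, which acts in secondary-wall cellulose deposition, were picked after their values were seen. *COB* had an interaction of -0.59 (95% interval -0.86 to -0.32, adjusted p = 0.0297). AT5G06700 had one of -0.55 (95% interval -0.81 to -0.30, adjusted p = 0.0342).

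AT5G64120, a peroxidase gene, was the 1 negative call whose transcript passed as a rise both in the mean of the mutants and in Col-0. Class III peroxidases use hydrogen peroxide at the cell wall. Its relative signals after chitin were 27.9, 23.8, 22.7 and 24.8 in *atl9*, 36.2, 29.6, 22.5 and 35.7 in *rre2* and 55.3, 46.1, 42.9 and 59.3 in Col-0. In mock they spanned 16.1 to 19.8 in *atl9*, 13.2 to 19.7 in *rre2* and 14.9 to 22.7 in Col-0. Within each line all chitin arrays lay above the mock arrays, and the Col-0 chitin arrays lay above those of both mutants. The chitin change was 0.46 in *atl9*, 0.79 in *rre2* and 1.55 in Col-0, and the interaction -0.92 (95% interval -1.35 to -0.50, adjusted p = 0.0336). Of the 5 genes tested in the list of NADPH oxidases and peroxidases it was the 1 call, and the list's median was 0.12. Of all probe sets tested, 0.708% were called below 0. Peroxidase genes outside this list were not counted, so the direction of peroxidase genes as a class is not shown. *PRX52*, a further peroxidase gene, had 1.63 (adjusted p = 0.244).

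The lowest interaction among the calls that match 1 gene belonged to AT5G03350, at -2.88 (95% interval -4.09 to -1.68, adjusted p = 0.0229). The annotation used here gives it no name, and the same holds for the other genes below that are given by locus code without a role. After chitin its relative signals were 7.49, 2.45, 3.15 and 7.03 in *atl9*, 7.38, 3.58, 1.63 and 5.32 in *rre2* and 20.1, 29.9, 26 and 34.9 in Col-0. In mock they spanned 3.05 to 12.1 in *atl9*, 2.69 to 7.36 in *rre2* and 3.55 to 5.27 in Col-0. The Col-0 chitin arrays exceeded all the others. AT3G54400 had the smallest adjusted p of all, with an interaction of -1.49 (95% interval -1.89 to -1.09, adjusted p = 0.00228). Its chitin arrays read 7.26, 7.3, 7.33 and 10.3 in *atl9*, 10.6, 6.51, 5.59 and 8.19 in *rre2* and 20.6, 20.6, 22.8 and 22.3 in Col-0, and its mock arrays 8.24 to 10.8 in *atl9*, 8 to 9.71 in *rre2* and 8.62 to 9.93 in Col-0. Here too the 4 Col-0 chitin arrays lay above the other 20, and the call was kept with any single array left out. AT4G23820, picked after its values were seen, was a further negative call kept in all 24 such refits, at -1.15 (95% interval -1.51 to -0.78, adjusted p = 0.00724).

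The remaining large negative differences came from genes that rose by 0.81 to 1.44 in Col-0, with 1 exception. *ATLP-1* (AT1G18250), a thaumatin-like protein gene, averaged 0.784 ± 0.186 in *atl9*, 0.702 ± 0.286 in *rre2* and 1.38 ± 0.206 in Col-0 after chitin and had an interaction of -1.37 (95% interval -2.02 to -0.72, adjusted p = 0.0355). *DRT100* (AT3G12610), named for DNA-damage repair and toleration, averaged 7.19 ± 1.15 in *atl9*, 6.62 ± 2.42 in *rre2* and 17.1 ± 1.37 in Col-0 after chitin and had an interaction of -1.22 (95% interval -1.76 to -0.67, adjusted p = 0.0284). In *DRT100* the highest mutant chitin array reached 10.1, below the lowest Col-0 chitin array of 15.4. Interactions of AT1G49750, AT4G32460, AT2G43620 and AT1G09750 were -1.46, -1.40, -1.38 and -1.34. Those of AT2G10940, AT2G34510, AT5G11420 and AT1G12845 were -1.27, -1.27, -1.19 and -1.18, and the adjusted p of these 8 genes lay between 0.0146 and 0.047. The exception was AT5G12050, at -1.20 (95% interval -1.76 to -0.64, adjusted p = 0.0342), whose chitin change passed as a fall in the mean of the mutants (-0.59) and in *atl9* alone (-1.01, adjusted p = 0.00278). It did not pass in *rre2*, at -0.17 (adjusted p = 0.728), nor in Col-0, at 0.61, and the interaction of *rre2* alone had an adjusted p of 0.258.

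**Figure D3:**
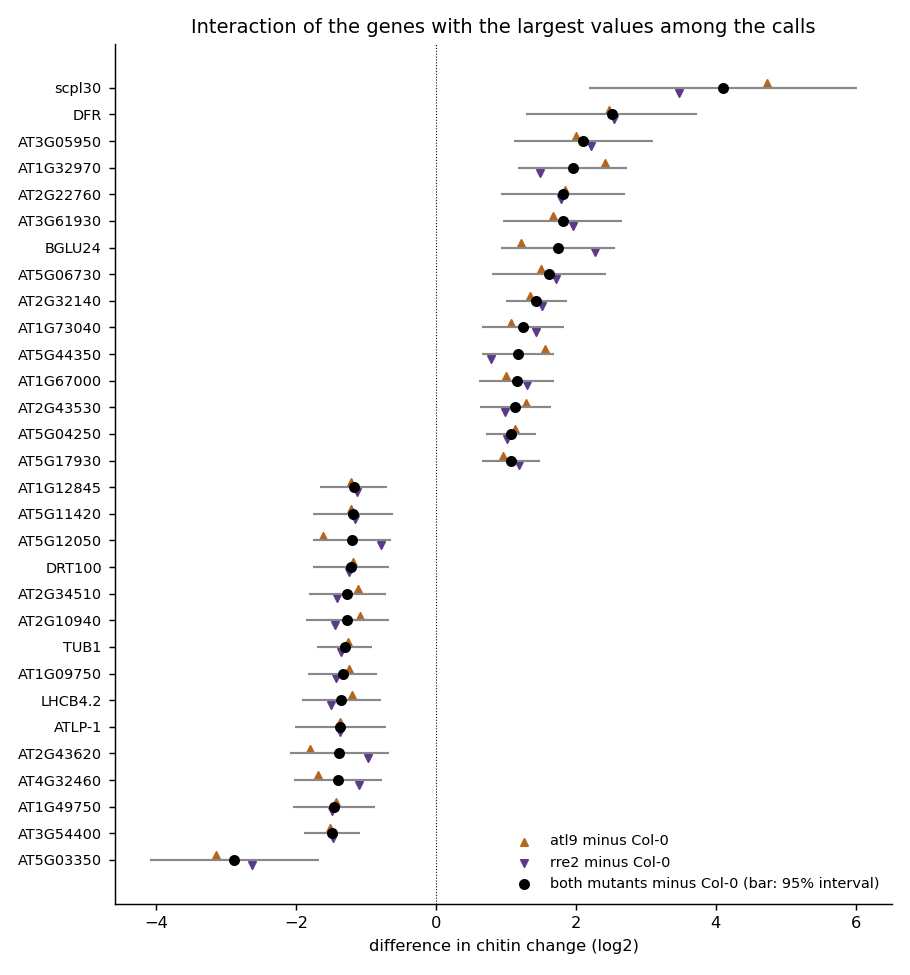
Interaction of the 15 highest and 15 lowest named genes among the calls (log2, horizontal axis); black points are both mutants minus Col-0 with 95% intervals, and triangles the same difference for *atl9* alone (upward) and *rre2* alone (downward), which share the Col-0 arrays. Each interval lies on 1 side of 0, which the choice of called genes fixes. Every triangle lies on the same side as its black point, which is the mean of the triangles, so this is largely fixed too.

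Among genes that rose more strongly in the mutants, AT2G32140 had the smallest adjusted p. Its relative signals after chitin were 6.27, 9.52, 8.56 and 6.76 in *atl9*, 7.36, 9.62, 9.93 and 6.63 in *rre2* and 3.26, 3.07, 3.53 and 3.07 in Col-0. The mock arrays spanned 0.828 to 0.994 in *atl9*, 0.79 to 0.987 in *rre2* and 0.682 to 1.31 in Col-0, with all lines overlapping. It rose in all 3 lines, and every mutant chitin array was above every Col-0 chitin array. The chitin change was 3.10 in *atl9*, 3.28 in *rre2* and 1.76 in Col-0, which gave an interaction of 1.43 (95% interval 1.00 to 1.87, adjusted p = 0.00515). This call was kept with any single array left out.

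*UGT73B5* (AT2G15480), a UDP-glycosyltransferase that attaches sugars to small molecules and is known to be raised in defence, showed the same pattern. Its relative signals were 7.42, 7.55, 6.83 and 6.77 in *atl9*, 6.45, 6.23, 9.56 and 6.37 in *rre2* and 4.21, 4.73, 4.35 and 3.68 in Col-0 after chitin. They spanned 2.59 to 3.42 in *atl9*, 2.93 to 3.34 in *rre2* and 2.74 to 3.28 in Col-0 in mock. All 8 mutant chitin arrays lay above the Col-0 chitin arrays. The interaction was 0.80 (95% interval 0.48 to 1.13, adjusted p = 0.0194). It was the 1 call among 38 UDP-glycosyltransferase genes tested, whose median was 0.07, while 0.49% of all probe sets were called above 0. *UGT88A1* of the same family had -0.78 (adjusted p = 0.0643). Chosen after their values were seen, 3 further genes that rose in all lines were called too. AT5G14700 changed by 3.15 in *atl9*, 3.26 in *rre2* and 2.21 in Col-0, with an interaction of 0.99 (95% interval 0.53 to 1.46, adjusted p = 0.0345). AT4G28085 and AT3G54150 had interactions of 0.95 and 0.78 (adjusted p = 0.0373 and 0.0372).

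A set of named genes rose in the mean of the mutants while Col-0 did not pass as changed. AT1G32970 had relative signals of 1.34, 3, 2.34 and 1.56 in *atl9*, 1.05, 0.998, 2.73 and 1.12 in *rre2* and 0.407, 0.434, 0.859 and 0.649 in Col-0 after chitin. Its mock arrays spanned 0.413 to 0.634 in *atl9*, 0.496 to 0.713 in *rre2* and 0.608 to 1.04 in Col-0. All mutant chitin arrays were above all Col-0 chitin arrays, and those of *rre2* ran from near the highest Col-0 array up to a single high array. The interaction was 1.95 (95% interval 1.17 to 2.73, adjusted p = 0.0188). Without *rre2* chitin replicate 3, the highest array of that group, the interaction was 1.78 (adjusted p = 0.0179) for AT1G32970, whose adjusted p ranged from 0.00598 to 0.31 over all alternatives. AT2G22760 and AT5G06730 had interactions of 1.82 and 1.61 (adjusted p = 0.0389 and 0.0454), with changes of 2.01 and 1.40 in the mean of the mutants and 0.20 and -0.21 in Col-0, and the call of AT2G22760 was lost without the same array (1.66, adjusted p = 0.052), which was among the 12 of 24 refits with 1 array left out that lost it, with an adjusted p of 0.00774 to 0.363 over all alternatives. AT5G44350 and AT1G67000 followed at 1.17 and 1.15 (adjusted p = 0.0268 and 0.0342). AT5G44350 passed as a rise in *atl9* (1.08, adjusted p = 0.000458) and not in *rre2* (0.32, adjusted p = 0.379). AT1G67000 passed in *rre2* (0.87, adjusted p = 0.00622) and not in *atl9* (0.56, adjusted p = 0.111). AT5G17930 passed as a rise in the mean of the mutants and as a fall in Col-0, and its interaction was 1.07 (95% interval 0.65 to 1.49, adjusted p = 0.0188). Its mock arrays spanned 0.573 to 0.915 in *atl9*, 0.639 to 0.794 in *rre2* and 0.967 to 1.21 in Col-0, so every mutant mock array was below every Col-0 mock array. The mutants minus Col-0 gave 0.43 after chitin and -0.65 in mock, so the mock levels made up the larger share of this interaction.

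The largest interaction of all belonged to *scpl30* (AT4G15100), which encodes a serine carboxypeptidase-like protein, and it came from a fall in Col-0. Its relative signals after chitin were 4.22, 11.5, 11.5 and 10.5 in *atl9*, 1.88, 7.78, 27.6 and 7.63 in *rre2* and 0.859, 0.2, 0.102 and 0.131 in Col-0. In mock they were 4.19, 9.19, 14.5 and 4.78 in *atl9*, 5.2, 17, 27 and 18.9 in *rre2* and 3.82, 2.65, 15.4 and 3.3 in Col-0. The 4 Col-0 chitin arrays lay below all other arrays, while the replicates of each group were widely spread. The interaction was 4.1 (95% interval 2.19 to 6.02, adjusted p = 0.0342), with a chitin change of 0.29 in *atl9*, -0.97 in *rre2* and -4.44 in Col-0.

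Several other genes passed as a fall in Col-0 and did not pass as changed in the mean of the mutants. AT3G05950, a germin-like protein gene in the study's annotation, averaged 1.71 ± 0.754 in *atl9*, 2.56 ± 0.975 in *rre2* and 0.264 ± 0.0755 in Col-0 after chitin, against 2.51 ± 1.24 in *atl9*, 2.99 ± 0.756 in *rre2* and 1.57 ± 0.652 in Col-0 in mock seedlings. Its interaction was 2.11 (95% interval 1.12 to 3.10, adjusted p = 0.0345). *BGLU24* (AT5G28510), a beta-glucosidase gene, averaged 0.546 ± 0.11 in *atl9*, 1.07 ± 0.364 in *rre2* and 0.268 ± 0.0691 in Col-0 after chitin and had an interaction of 1.74 (95% interval 0.93 to 2.56, adjusted p = 0.0342). AT3G61930, AT1G73040 and AT2G43530 had interactions of 1.81, 1.25 and 1.14 (adjusted p = 0.0345, 0.0345 and 0.0284). AT5G04250 had relative signals of 1.2, 1.43, 1.24 and 1.28 in *atl9*, 1.27, 1.23, 1.32 and 1.41 in *rre2* and 0.767, 0.646, 0.579 and 0.814 in Col-0 after chitin. All mutant arrays were above those of Col-0, and its interaction of 1.07 (95% interval 0.71 to 1.44, adjusted p = 0.0106) passed with any single array left out.

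**Figure D4:**
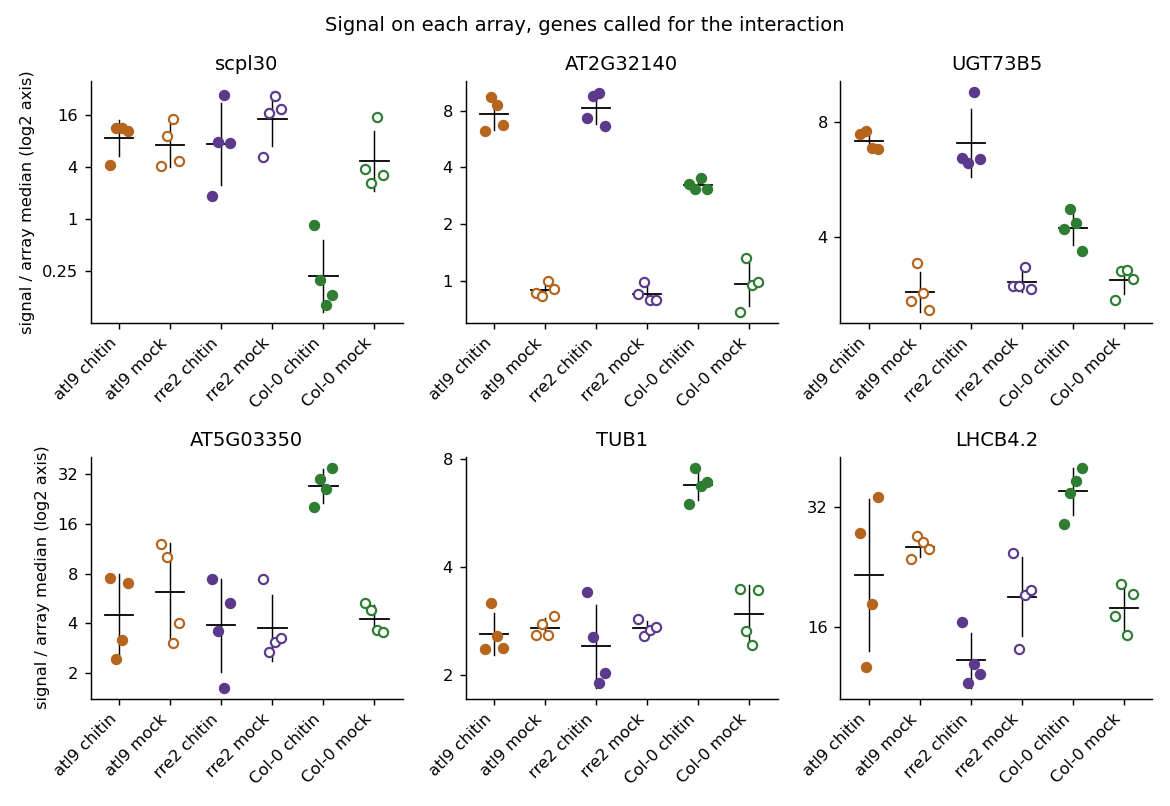
Relative signal (signal over the array median, log2 axis) of 6 called genes on each array; filled points are chitin and open points mock arrays of *atl9*, *rre2* and Col-0, the bar is the mean and the line 1 SD on each side, both of log2 values. The Col-0 chitin arrays of *TUB1* and AT5G03350 lie above all others and those of *scpl30* below all others, while AT2G32140 and *UGT73B5* rise further in the mutants.

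Most measured genes of anthocyanin synthesis and of jasmonate responses fell in Col-0 after chitin, and *DFR*, *UF3GT*, *JRG21* and *PDF1.2* were higher on 1 Col-0 chitin array than on the other 3. After chitin 6.56% of all probe sets tested fell in the mean of the mutants and 5.67% in Col-0, and 0.49% were called above 0. Of 7 anthocyanin and flavonoid genes tested, 1 fell in the mutants and 6 in Col-0, and the list's median interaction was 2.17. *DFR* (AT5G42800), the dihydroflavonol reductase that commits flavonoids to anthocyanin, was its 1 call. Its relative signals after chitin were 5.42, 11.5, 10.7 and 8.68 in *atl9*, 6.28, 9.65, 17.3 and 20.1 in *rre2* and 4.9, 1.07, 1.28 and 0.87 in Col-0. In mock they spanned 8.02 to 14.8 in *atl9*, 10.3 to 17.2 in *rre2* and 4.25 to 19.1 in Col-0. Col-0 chitin replicate 1 read above the other Col-0 chitin arrays, and all 4 lay below the mutant chitin arrays. The interaction was 2.51 (95% interval 1.29 to 3.74, adjusted p = 0.0373), and 3.07 (adjusted p = 0.00632) without that array. The call of *DFR* was lost in 12 of the 24 refits that each left out 1 array, where the highest adjusted p was 0.117, and with scan day as a block (adjusted p = 0.0613). Over all alternatives its adjusted p ranged from 0.00344 to 0.348.

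The next genes of the pathway did not pass with all arrays. *UF3GT*, which transfers a sugar to anthocyanins, had relative signals of 2.65, 5.6, 7.61 and 5.45 in *atl9*, 2.47, 5.7, 9.37 and 11.6 in *rre2* and 2.84, 0.358, 0.694 and 0.405 in Col-0 after chitin. Its mock arrays spanned 5.36 to 9.47 in *atl9*, 7.41 to 10.7 in *rre2* and 2.66 to 9.14 in Col-0, and Col-0 chitin replicate 1 again stood apart, within the range of the mutants. The interaction was 2.53 (95% interval 1.15 to 3.91, adjusted p = 0.062), against 3.19 (adjusted p = 0.00784) without that array, and its adjusted p ranged from 0.00581 to 0.42 over all alternatives. *AT5MAT*, an anthocyanin malonyltransferase, had 2.31 (adjusted p = 0.0711), and 2.96 (adjusted p = 0.00778) without it. The interaction of *AT5MAT* was 1.11 with an offset of 32 signal units, 1.49 on the fourth scan day alone and 3.12 on the earlier days, and its adjusted p reached 0.461. Its Col-0 chitin arrays read only 0.0461 to 0.434 of the array median. AT4G14090, counted in the same list, had 2.17 (adjusted p = 0.0832), and 2.78 (adjusted p = 0.0136) without it, with an adjusted p of 0.00762 to 0.419 over all alternatives. Of the 24 refits that each left out 1 array, 4 gave a call for *UF3GT* and 2 each for *AT5MAT* and AT4G14090.

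All 6 jasmonate genes tested had an interaction above 0, with a median of 1.47, beside -0.02 over all probe sets. Of the 6, 0 passed, while 0.49% of all probe sets were called above 0. In the mean of the mutants 0 of the 6 passed as a fall after chitin (6.56% of all probe sets), and in Col-0 5 did (5.67%). The list's median chitin change was 0.26 in *atl9*, -0.72 in *rre2* and -1.76 in Col-0. Its median interaction was 2.15 for *atl9* alone and 1.02 for *rre2* alone. *JRG21*, a jasmonate-regulated gene, had relative signals of 35.1, 20.1, 31.6 and 43.9 in *atl9*, 8.91, 17.1, 46.5 and 39.3 in *rre2* and 11.4, 2.13, 2.02 and 1.75 in Col-0 after chitin. Its mock arrays spanned 15.4 to 44.7 in *atl9*, 20.6 to 40.6 in *rre2* and 11.1 to 36.1 in Col-0. The Col-0 chitin arrays other than replicate 1 lay below every other array. The interaction was 2.66 (95% interval 1.19 to 4.13, adjusted p = 0.0652), and 3.29 (adjusted p = 0.0147) without replicate 1, and its adjusted p ranged from 0.00598 to 0.464 over all alternatives. *PDF1.2* (AT5G44420), a defensin gene widely used as a jasmonate and ethylene marker, had relative signals of 144, 133, 118 and 173 in *atl9*, 68.5, 149.6, 222 and 202 in *rre2* and 91.4, 30.8, 39.3 and 34.8 in Col-0 after chitin. Its interaction was 1.42 (95% interval 0.58 to 2.25, adjusted p = 0.0828), and 1.76 (adjusted p = 0.0191) without that array, with an adjusted p of 0.0129 to 0.498 over all alternatives. *JMT*, the methyltransferase that makes methyl jasmonate, and *JAL23*, a jacalin-related lectin gene, had 1.81 and 1.53 (adjusted p = 0.21 and 0.275). The chitin change of *JMT* was -0.11 in *atl9* and 0.20 in *rre2*, and that of *JAL23* 0.53 and -1.30.

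**Figure D5:**
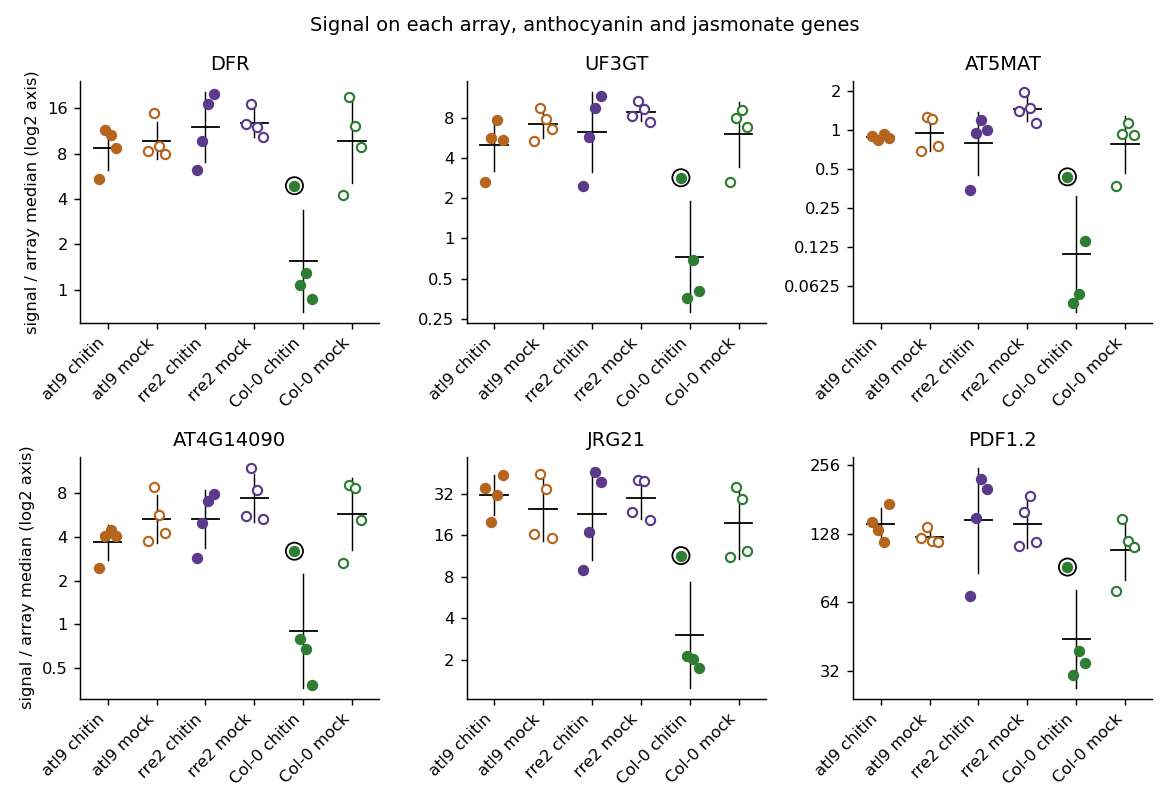
Relative signal (signal over the array median, log2 axis) of 4 anthocyanin genes and 2 jasmonate genes on each array, drawn as filled points for chitin and open points for mock, with the mean and 1 SD of log2 values; a ring marks Col-0 chitin replicate 1. The ringed array reads 4.9 for *DFR* and 11.4 for *JRG21*, above the other Col-0 chitin arrays, which reach 1.28 and 2.13.

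Genes of elicitor perception and early signalling mostly rose after chitin in the mutants and in Col-0, and 0 of the 10 tested passed the interaction test. Of these, 9 rose in the mutants (10.6% of all probe sets) and 7 in Col-0 (11.8%), and the list's median interaction was 0.44. *CML37* (AT5G42380), a calmodulin-like calcium sensor, averaged 24.8 ± 3.71 in *atl9*, 22.6 ± 4.47 in *rre2* and 14.8 ± 2.7 in Col-0 after chitin, against 0.721 ± 0.187 in *atl9*, 0.727 ± 0.206 in *rre2* and 0.813 ± 0.221 in Col-0 in mock seedlings. Its interaction was 0.85 (95% interval 0.28 to 1.41, adjusted p = 0.128). *PUB22* (AT3G52450), a U-box E3 ligase that dampens immune signalling, changed by 2.50 in *atl9*, 2.76 in *rre2* and 1.85 in Col-0, with an interaction of 0.78 (95% interval 0.27 to 1.28, adjusted p = 0.12). *CML23*, a second calmodulin-like gene, had 0.93 (adjusted p = 0.0912). The transcription factor gene *WRKY53* (AT4G23810) changed by 3.47 in *atl9*, 3.51 in *rre2* and 3.37 in Col-0, and its interaction was 0.13 (95% interval -0.35 to 0.60, adjusted p = 0.832). Among 6 WRKY genes tested 0 passed, with a median of 0.03, and among 4 ATL-type RING genes 0 passed, with a median of 0.24. Over all probe sets 1.2% were called, so 0 calls in lists this small, the elicitor list included, do not show equal responses.

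The other lists held few tested genes and 0 calls. All 9 genes of folding and degradation in the endoplasmic reticulum had an interaction below 0, with a median of -0.22, beside -0.02 over all probe sets. Of these, *CRT1b*, a calreticulin chaperone gene, had the smallest adjusted p, at -0.53 (95% interval -0.85 to -0.20, adjusted p = 0.104). The medians were -0.35 for 5 auxin genes, 0.07 for 14 cytochrome P450 genes, -0.19 for 3 salicylic acid genes and -0.07 for 4 reference genes. Single genes were tested for ERF-type factors (0.48), root triterpene clusters (0.35) and the clock (0.30). None was tested for ribosomal proteins, heat shock proteins, glucosinolates or organelle genes. Of 100 locus codes that had been picked out on these arrays earlier, and so are no independent evidence, 30 were tested, with a median of 0.03. Calls among them were *scpl30* and AT3G05950 above 0 and AT5G64120 and AT1G04680 below.

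The genes with the largest chitin rises over the 3 lines did not pass the interaction test either, but their intervals were wide. AT1G07160 changed by 6.75 in *atl9*, 5.89 in *rre2* and 4.98 in Col-0, with an interaction of 1.34 (95% interval 0.23 to 2.45, adjusted p = 0.223). Its mock signals were low, with means of 0.177 in *atl9*, 0.240 in *rre2* and 0.394 in Col-0. The mutants minus Col-0 gave 0.14 after chitin and -1.19 in mock, so the mock levels made up most of this value. AT4G18540, AT4G04480 and AT3G12910 had interactions of 0.45 (95% interval -1.56 to 2.47), 0.40 (95% interval -0.91 to 1.72) and 0.52 (95% interval -0.59 to 1.62). AT2G36440, a gene of unknown function in the study's annotation, rose after chitin to 5.32, 3.72, 3.12 and 2.82 in *atl9*, 3.16, 5.2, 6.66 and 3.89 in *rre2* and 1.49, 4.16, 2.51 and 2.29 in Col-0. In mock its relative signals spanned 0.0375 to 0.177 in *atl9*, 0.0391 to 0.196 in *rre2* and 0.00647 to 0.0368 in Col-0, far under the array median, and the Col-0 mock arrays were the lowest. Its interaction was -2.24 (95% interval -3.70 to -0.78, adjusted p = 0.119), and 0.15 with an offset of 32 signal units added before the logarithm.

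Each mutant was also set against the same Col-0 arrays on its own. The response of *atl9* differed from that of Col-0 at 57 probe sets (0.345%), 19 above 0 (0.115%) and 38 below (0.23%). That of *rre2* differed at 40 (0.242%), 16 above 0 (0.0968%) and 24 below (0.145%). Of the 198 calls, 51 passed when *atl9* was tested on its own and 38 when *rre2* was, and only 12 passed in both of these tests. The median differences at the 81 positive calls were 0.96 for *atl9* and 1.01 for *rre2*, and at the 117 negative calls -0.94 and -0.93. These 2 comparisons share the Col-0 arrays. The 198 calls were chosen on the mean of both differences, which largely fixes their shared sign, so these medians are a description. When single arrays were dropped, the count of *atl9* lay between 0 (*atl9* chitin replicate 3 dropped) and 132 (Col-0 chitin replicate 1 dropped). That of *rre2* lay between 0 (Col-0 chitin replicate 4 dropped) and 248 (*rre2* chitin replicate 1 dropped).

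The direct comparison of the mutants gave 0 calls in limma (0% of those tested), where the smallest adjusted p was 0.2. Its means use no Col-0 array, while its spread was estimated over all 24 arrays. Before adjustment 1248 probe sets had p under 0.05, and the same linear model without moderation also gave 0 calls. A fit of the 16 mutant arrays alone gave 0 calls too. The median size of the difference between the mutants was 0.21 at the 198 interaction calls and 0.20 over all probe sets tested. It reached 1 at 4 of the 198. For *TUB1* the response of *atl9* minus that of *rre2* was 0.11 (95% interval -0.35 to 0.57), and for AT2G32140 it was -0.18 (95% interval -0.69 to 0.32). For *scpl30* the interval was far wider, at -0.96 to 3.47 around 1.26. At 5 of the 42 named calls the interval between the mutants left out 0, although none passed after adjustment. These were *BGLU24* at -1.06 (95% interval -2.01 to -0.12), AT5G12050 at -0.84 (95% interval -1.49 to -0.19), AT2G43620 at -0.82 (95% interval -1.64 to -0.01), AT1G32970 at 0.93 (95% interval 0.02 to 1.83) and AT5G44350 at 0.77 (95% interval 0.18 to 1.36).

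With only the arrays of the fourth scan day, 2 per group, the median differences were 1.06 at the 81 positive and -0.85 at the 117 negative calls, and with only the arrays of the earlier days they were 1.02 and -0.95. Both subsets are part of the data that chose the calls, so these medians are a description. Neither subset alone passed the adjusted threshold at any probe set, with 1780 and 1977 probe sets at an unadjusted p under 0.05. Of the 42 called genes named here, 5 were called in every refit that left out 1 array, and these were AT2G32140, AT3G54400, AT4G23820, AT5G04250 and *TUB1*. With Col-0 chitin replicate 4 or Col-0 mock replicate 3 dropped, 5 of the 42 were called.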

How the data were processed

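Transcripts of whole seedlings were measured on 24 ATH1 arrays, 1 per biological replicate, 4 in each of 6 groups. A replicate was a flask of seedlings per the labels, and p-values measure the spread between flasks and arrays. The deposited intensities are the authors' values on a linear scale, read from the array images in Affymetrix software and brought to a common trimmed mean. Settings files of the instrument (unit other) gave the scan day and fluidics module.

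Signals were divided by the median of their array, which was taken over 22746 non-control probe sets, and log2-transformed with no offset. Tests covered the 16530 of highest mean signal. Probe sets were named from a platform annotation and the assembly TAIR10.1. Of those tested, 9006 matched 1 gene, 341 several, and 7183 (43.5%) were not listed. Group means were fitted in R 4.3.3 with limma 3.58.1 (lmFit, eBayes, 18 residual degrees of freedom), which gave 95% intervals and p-values adjusted by Benjamini-Hochberg over all tested probe sets. A call is an adjusted p under 0.05. The script was tested on simulated data. Arrays have no read depth, and their number limits the precision.

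The comparison, the gene lists and the rule for named genes were chosen with earlier results of these data known. Named were the 15 highest and 15 lowest interactions among calls that match 1 gene and reach the array median in a group, up to 4 genes with the smallest adjusted p per list, calls among the genes of the study's microarray table, and the 5 genes with the largest chitin rise over the lines. From the second part, genes are shown for the lists described at length. Genes outside the rule are named as such.

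Alternatives were quantile normalization, the deposited values with no division, an offset of 32 signal units, a filter of 11000 probe sets or none, the replicate number or the scan day as a block, no moderation, a trended and robust prior, array weights, 16 arrays in place of 24, and each array left out. The scan days taken alone were added after the data were seen. Of 60 pairs of arrays with the same replicate number in different groups, 16 correlated above 0.1 after group means were removed, so samples were treated as unpaired. By the same measure, arrays of different groups correlated on average at 0.087 on the same scan day and at -0.042 on other days.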

Additional observations from a re-analysis of the deposited data

Results flagged for a closer look

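The chitin change differed between both mutants and Col-0 at 198 probe sets, by the interaction test itself.

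Single arrays stood apart from the other 3 of their group for 15 of 252 gene and group combinations, looked at for 42 called genes. Chance flags about 1 in 20 groups. The array *rre2* chitin replicate 3 appeared 3 times and every other array at most once. It read 2.73 for AT1G32970, against 0.998 to 1.12 on the other arrays of its group, 2.14 for AT2G22760, against 0.833 to 0.942, and 9.56 for *UGT73B5*, against 6.23 to 6.45. In *UGT73B5*, *rre2* mock replicate 3 read 3.34, against 2.93 to 2.98.

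Of the chitin arrays, *atl9* replicate 1 read 4.22 for *scpl30* (others 10.5 to 11.5) and *atl9* replicate 4 read 10.3 for AT3G54400 (others 7.26 to 7.33). Chitin-treated *rre2* replicate 1 read 1.16 for AT1G73040 (others 2.1 to 2.22), and *rre2* replicate 4 read 53.8 for AT5G14700 (others 45.8 to 46.9). In Col-0 after chitin, replicate 2 read 14.1 for AT1G09750 (others 15.7 to 15.9) and replicate 1 read 35.7 for AT4G28085 (others 26.9 to 28.1).

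Of the mock arrays, *atl9* replicate 3 read 1.44 for AT5G44350 (others 0.981 to 1.01) and *atl9* replicate 1 read 10.5 for AT3G54150 (others 7.15 to 7.23). The mock array of *rre2* replicate 4 read 13.2 for AT5G64120 (others 18.9 to 19.7), and that of *rre2* replicate 1 read 2.34 for *LrgB* (others 1.51 to 1.57). Mock Col-0 replicate 2 read 2.75 for AT5G06730 (others 1.37 to 1.41).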

How the results depend on the processing

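The 198 differences between both mutants and Col-0 kept their sign under every alternative run, or 171 of 171 where the stricter filter left that many, which choosing them on the same arrays largely fixes, while the number of calls moved. The count was 40 without a filter, 367 with the stricter filter, 316 with a trended and robust prior and 924 with array weights, the lowest weight, 0.452, falling on Col-0 chitin replicate 1. With scan day as a block it was 214, and 162 of the 198 calls were kept. It was 0 with either set of scan days alone, where 6 residual degrees of freedom remained. With 1 array left out it lay between 6 and 400. For *atl9* alone, 57 calls became 1 without a filter (AT3G54400), 126 with the stricter filter, 106 with the trended prior, 805 with array weights and 0 with either set of scan days, and 0 to 132 with 1 array left out. For *rre2* alone, 40 calls became 18 with the values as deposited, 14 after quantile normalization, 96 with the offset, 4 without a filter, 197 with the stricter filter, 7 with scan day blocked, 14 without moderation, 164 with the trended prior, 314 with array weights, 25 in a fit of 16 arrays and 0 with either set of scan days, and 0 to 248 with 1 array left out. The cause of these moves was not tested, and filters and subsets also change the number of probe sets or arrays tested.

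With the replicate number as a block the counts were 207 for both mutants, 59 for *atl9*, 48 for *rre2* and 1 for *atl9* minus *rre2*, namely AT1G18460 (1.09, adjusted p = 0.00551), chosen by this count alone. Arrays of different groups with the same number correlated on average at 0.0076 after group means were removed. Of 24 arrays, 9 lay closest to an array of another group with the same number. No chance value was computed for this count, so it does not exclude pairing by number. Between the mutants, 0 to 1 calls were made with 1 array left out.

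Among the named genes, 5 that were not called changed sign somewhere. They were AT2G36440 (0.15 with the offset), AT4G18540 (-0.32 on the fourth scan day, and -0.13 to 1.08 with 1 array left out), AT4G04480 (-0.20) and AT3G12910 (-0.60) on the earlier scan days, and *WRKY53* (-0.0040 to 0.27 with 1 array left out, below 0 without Col-0 chitin replicate 1). Of the 42 called genes, 31 lost the call without a filter, 11 after quantile normalization, 8 with the values as deposited and 8 with scan day as a block. The number of arrays limits all counts.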
